A study of Mus musculus with 24 samples.

Results

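The genes described here are NRF2 (gene symbol Nfe2l2) and 9 of its classical antioxidant targets and partners: Nqo1, Srxn1, Gclc, Gclm, Txnrd1, Ephx1, Osgin1, Mafg and G6pdx. They were chosen by symbol, and where several probe sets carried a symbol the one with the highest mean was to be used. Of the 10 genes, 9 had a probe set, 1 each, among 18820 genes measured, and G6pdx was not analysed here. The livers came from 24 male C57BL/6 mice on chow, aged 9 to 12 weeks, with 1 array per mouse and 6 mice in each of 4 groups. Wild-type (WT) mice and mice lacking the bile acid receptor FXR (FXR-/-, written FXRKO) were given either vehicle, 1% methyl cellulose, or the FXR agonist obeticholic acid (OCA, also called INT-747) at 10 mg/kg/day in the same vehicle, by oral gavage once a day for 7 days. All levels below are log2 signals, so a difference of 1 is 2-fold, and levels are set side by side only for the same gene. In whole liver, fewer cells of a type and less RNA per cell cannot be told apart.

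NRF2 is a transcription factor that is made continuously and, in unstressed cells, is bound by KEAP1 and marked for degradation. Electrophiles and oxidants modify KEAP1, NRF2 then accumulates, pairs with a small MAF protein and binds antioxidant response elements near genes of glutathione synthesis, thioredoxin recycling, quinone reduction and NADPH supply. Its activity is therefore set largely at the protein level, and liver uses these genes in the disposal of drugs and bile acids.

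The antioxidant response element has the core letters TGACNNNGC, and the variant TGAGNNNGC is found in the longer site bound by MAF proteins. Promoters running from 250 bases before to 50 after the gene start were available for 9 of the 10 genes from RefSeq (GRCm38.p6), with Gclc not matched, and were searched on both strands. The core was found for 6 of the 9 genes, against 14.0% of 27025 genes with a promoter in the table, and in 12.4% of all 32851 promoters. The variant was found for 2 of the 9 genes, against 19.8% of genes and 17.6% of promoters. Either motif was present for 7 of 9, against 30.8% of genes. The genes were chosen as known NRF2 targets and partners, so a share above the background is no independent result. Among other NRF2 pathway genes, described below, 42 had a promoter in the table. The core was found for 11 of these 42, the variant for 10 and either for 17. A fixed form of the core, TGACTCAGC, was found for 0 of the 9 genes and for 0.5% of all genes. Some genes have more than 1 promoter in the table, Txnrd1 among them. A match is a description of letters and not evidence of binding, and the absence of a match for Nqo1 and Ephx1 concerns only this window. The stretches that hold a match before the gene start are shown for the measured genes so that the matched letters can be read, 4 of them core and 3 variant matches, the latter in Srxn1 and Osgin1. Each reads 5′ to 3′ along the gene, and capitals mark the motif, which on the opposite strand reads GCNNNGTCA or GCNNNCTCA.
Srxn1, chr2:152105454-152105512, plus strand, 45 bases before the start: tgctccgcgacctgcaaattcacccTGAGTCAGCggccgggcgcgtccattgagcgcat
Srxn1, chr2:152105341-152105399, plus strand, 158 bases before the start: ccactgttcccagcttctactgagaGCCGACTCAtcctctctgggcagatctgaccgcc
Osgin1, chr8:119437023-119437081, plus strand, 99 bases before the start: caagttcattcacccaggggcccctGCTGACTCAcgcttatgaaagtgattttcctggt
Gclm, chr3:122245398-122245456, plus strand, 134 bases before the start: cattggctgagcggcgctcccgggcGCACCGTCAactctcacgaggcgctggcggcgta
Txnrd1, chr10:82859089-82859147, plus strand, 92 bases before the start: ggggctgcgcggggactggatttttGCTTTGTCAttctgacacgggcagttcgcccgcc
Mafg, chr11:120633736-120633794, minus strand, 222 bases before the start: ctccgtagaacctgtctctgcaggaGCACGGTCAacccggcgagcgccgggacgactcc
Nfe2l2, chr2:75704870-75704913, minus strand, 240 bases before the start: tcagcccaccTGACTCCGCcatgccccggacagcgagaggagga

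The array of 1 WT vehicle mouse, replicate 6, stood apart, where 532 genes lay more than 2-fold away from the rest of the group, against 2 to 90 genes for any other array. It was the lowest WT vehicle array for Nfe2l2, Gclc, Gclm, Ephx1, Osgin1 and Mafg and the highest for Txnrd1. The probe set of Nr1h4, the gene of FXR, did not tell the genotypes apart (FXRKO minus WT under vehicle −0.17 ± 0.07 SE; limma, Benjamini-Hochberg adjusted p = 0.0935), and whether its probes lie in the deleted part is not known here. Nr0b2, which encodes SHP and is induced by FXR, was lower in FXRKO liver by a log2 change of −2.62 ± 0.25 under vehicle (adjusted p = 1.21e-08), and OCA raised it in WT liver by 1.41 ± 0.25 (adjusted p = 0.0244). The array names carry a code number. WT vehicle replicates 1 to 4 and FXRKO vehicle replicates 3 to 6 carry 7, the remaining WT arrays 5 and the remaining FXRKO arrays 9, so FXRKO and WT under vehicle can be compared within number 7 but not under OCA.

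Loss of FXR raised 6 of the 9 measured genes under vehicle and lowered 2. Nqo1, Srxn1, Ephx1, Nfe2l2, Gclc and Gclm rose, Osgin1 and Mafg fell, and Txnrd1 did not pass. The count of 8 of 9 called compares with 27.5% of all genes in the same comparison (15.4% higher, 12.1% lower), at a Benjamini-Hochberg adjusted p under 0.05 in limma. The genes were chosen with earlier results of these data known, so the count is a description. The median change of the 9 genes was 0.64, against −0.03 over all genes.

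**Figure D1:**
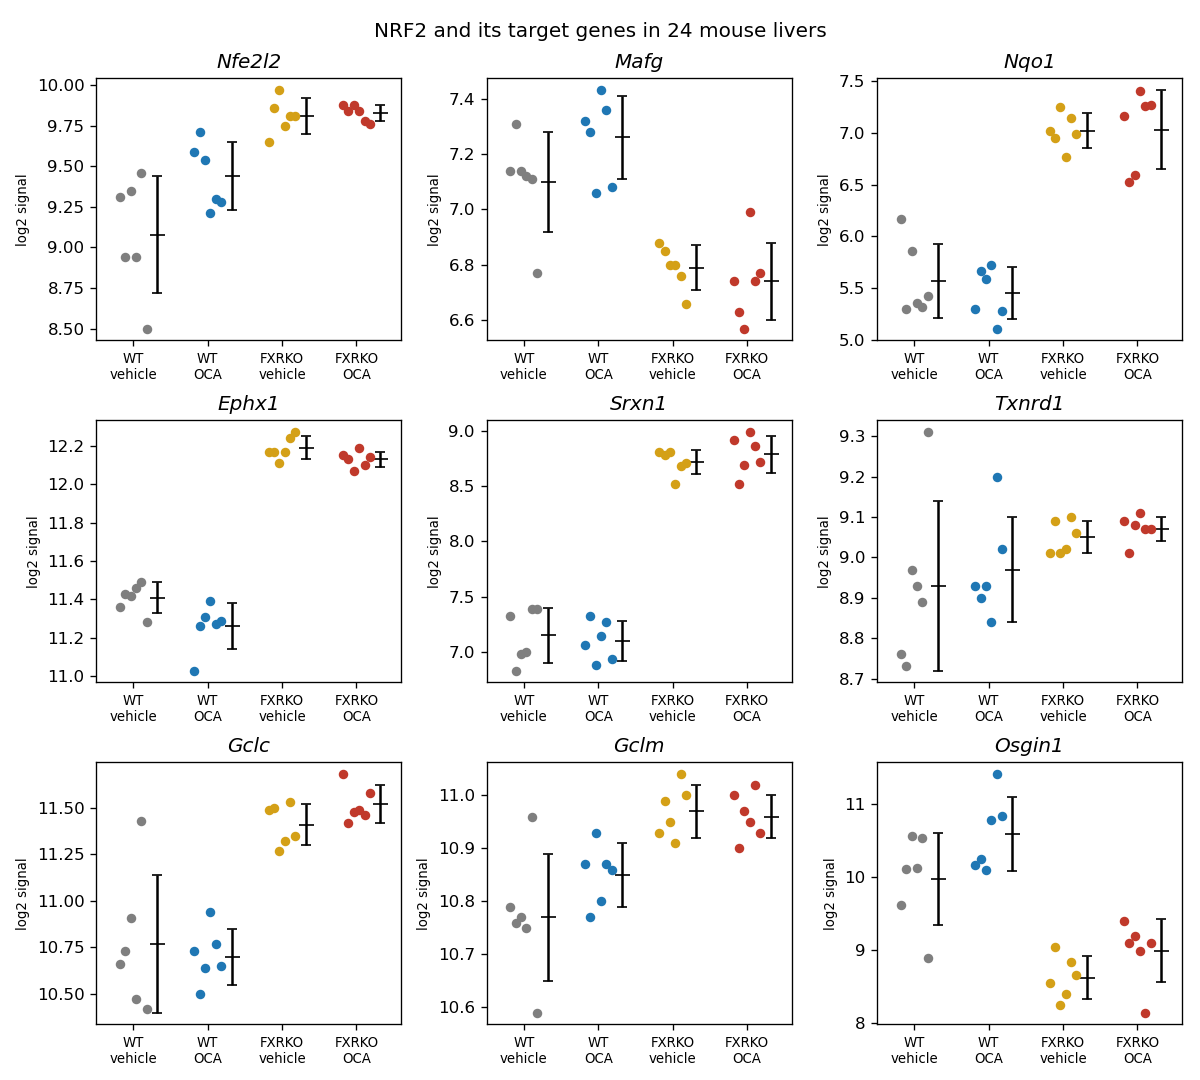
Log2 signal of the 9 measured genes (vertical axes, scaled separately) in each of 24 livers, by genotype and treatment (horizontal axis); points are mice, and the black mark with bars is the group mean ± SD (n = 6). For Nqo1, Srxn1 and Ephx1 every FXRKO liver lies above every WT liver, and for Osgin1 and Mafg the FXRKO livers are low.

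The regulators went opposite ways. Nfe2l2 itself ran from 8.50 through a median of 9.12 to 9.46 in WT vehicle liver and from 9.65 through 9.81 to 9.97 in FXRKO vehicle liver. The groups did not overlap, and the WT mice were the more spread (9.08 ± 0.36 against 9.81 ± 0.11, mean ± SD, n = 6). The change was 0.72 ± 0.12 (SE), or 1.65-fold (limma, adjusted p = 3.44e-05). Mafg encodes a small MAF protein, a DNA-binding partner of NRF2 that can also repress when paired with itself or with BACH1, and it is known as an FXR-induced repressor of bile acid synthesis genes. Mafg ranged from 6.77 (median 7.13) to 7.31 in WT and from 6.66 (median 6.80) to 6.88 in FXRKO vehicle liver. The overlap came from WT replicate 6 alone, whose 6.77 lay below the other WT arrays (7.11 to 7.31). Mafg fell by 0.31 ± 0.08 (1.24-fold lower, adjusted p = 0.00644).

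The quinone and epoxide enzymes showed separate groups. Nqo1, the NAD(P)H quinone reductase most often used as a readout of NRF2, ranged from 5.30 (median 5.39) to 6.17 in WT and from 6.77 (median 7.01) to 7.25 in FXRKO vehicle liver. Every knockout liver exceeded every WT liver, and Nqo1 rose 2.73-fold (1.45 ± 0.16, adjusted p = 1.22e-07). Ephx1 encodes microsomal epoxide hydrolase, which opens reactive epoxides and is also known as a target of the xenobiotic receptor CAR. Its values were tight in both genotypes, 11.28 (median 11.43) to 11.49 in WT and 12.11 (median 12.17) to 12.27 in FXRKO vehicle liver. They did not overlap, and Ephx1 rose 1.72-fold (0.78 ± 0.06, adjusted p = 5.34e-11).

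Of the 2 redox-cycle genes 1 rose strongly. Srxn1, sulfiredoxin, which repairs over-oxidised peroxiredoxins, ran from 6.83 (median 7.16) to 7.39 in WT and from 8.52 (median 8.75) to 8.81 in FXRKO vehicle liver. With no overlap it rose 2.96-fold (1.57 ± 0.10, adjusted p = 9.53e-12), the largest absolute change among the 9 genes. Txnrd1, the cytosolic thioredoxin reductase, ranged from 8.73 (median 8.91) to 9.31 in WT and from 9.01 (median 9.04) to 9.10 in FXRKO vehicle liver. The FXRKO values lay inside the WT range, whose top was replicate 6. The change of 0.12 ± 0.08 did not pass (adjusted p = 0.265, 95% interval −0.04 to 0.27). Without WT vehicle replicate 6 it was 0.19 with adjusted p = 0.0161, and with each array centred on its median it was −0.05.

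Glutathione synthesis showed a larger change in the catalytic than in the modifier subunit of glutamate-cysteine ligase, a difference that was not tested. Gclc, the catalytic subunit of this rate-limiting enzyme, ranged from 10.42 (median 10.69) to 11.43 in WT and from 11.27 (median 11.42) to 11.53 in FXRKO vehicle liver. WT replicate 5, at 11.43, was the WT array inside the knockout range. Gclc rose 1.56-fold (0.64 ± 0.12, adjusted p = 0.000144). Gclm, the modifier subunit, ranged from 10.59 (median 10.76) to 10.96 in WT and from 10.91 (median 10.97) to 11.04 in FXRKO vehicle liver. The groups overlapped through the same WT replicate 5, and the rise was 1.15-fold (0.20 ± 0.05, adjusted p = 0.00551). With each array centred on its median the Gclm change was 0.03 and its call ended (adjusted p = 0.581).

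Osgin1 moved against the other enzymes and response genes. It encodes an oxidative stress-induced growth inhibitor and is also known to be induced by FXR agonists. In WT vehicle liver it ran from 8.89 through a median of 10.12 to 10.56, and in FXRKO vehicle liver from 8.24 through 8.60 to 9.04. WT replicate 6, at 8.89, was the WT array inside the knockout range, and the next lowest WT array was 9.62. Osgin1 fell by 1.36 ± 0.26 (2.56-fold lower, adjusted p = 0.000195).

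**Figure D2:**
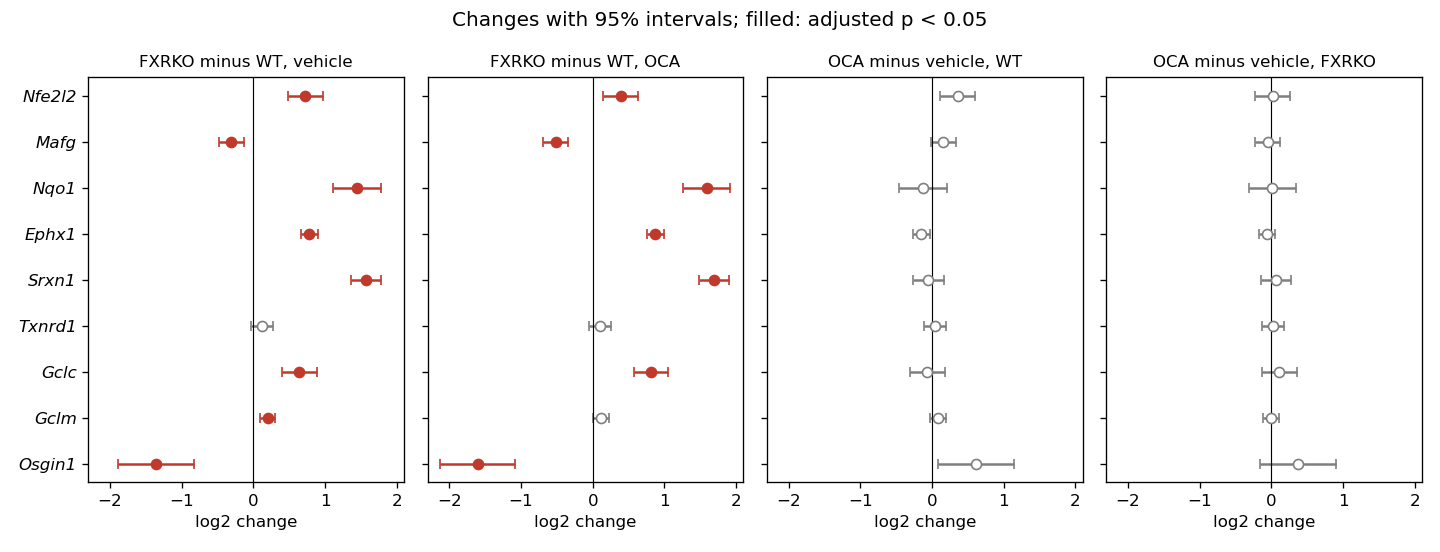
Log2 change (horizontal axes) of each of the 9 genes (vertical axis) in 4 comparisons, with 95% intervals from limma; filled symbols passed an adjusted p under 0.05. In the panels of FXRKO against WT 8 and 7 genes are filled, and in both panels of OCA against vehicle none is.

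Under OCA the knockout difference was measured again in other mice, 6 FXRKO and 6 WT, with no array shared with the vehicle comparison. All 9 genes had the sign seen under vehicle. How many of all genes repeated their sign or call was not counted, so the repeat cannot be called particular to these genes. Of them 7 were called (5 higher, 2 lower), against 30.7% of all genes (17.4% higher, 13.3% lower), and all 7 were among the 8 called under vehicle, 87.5% of those. Srxn1 stood 3.22-fold higher in FXRKO (1.69 ± 0.10, adjusted p = 2.3e-12), from 6.88 to 7.32 in WT OCA liver (median 7.10) and from 8.52 to 8.99 in FXRKO OCA liver (median 8.80). Nqo1 stood 3.01-fold higher (1.59 ± 0.16, adjusted p = 2.38e-08), at 5.11 to 5.72 (median 5.45) in WT against 6.52 to 7.40 (median 7.21) in FXRKO. The FXRKO OCA mice were less uniform for Nqo1 than for Srxn1, with replicates 2 and 3 at 6.52 and 6.59 and the others at 7.16 or more.

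Of the remaining genes 5 were called in the direction seen under vehicle, and Gclm and Txnrd1 did not pass. Ephx1 was higher by 0.87 ± 0.06 (adjusted p = 6.31e-12) and Gclc by 0.81 ± 0.12 (adjusted p = 5.29e-06). Gclc no longer overlapped, with 10.50 to 10.94 in WT and 11.42 to 11.68 in FXRKO liver. Osgin1 was lower by a change of −1.60 ± 0.26 (adjusted p = 2.09e-05) and Mafg by −0.52 ± 0.08 (adjusted p = 2.5e-05). Both were also free of overlap, Osgin1 with 10.10 to 11.41 in WT and 8.14 to 9.40 in FXRKO liver, and Mafg with 7.06 to 7.43 and 6.57 to 6.99. Nfe2l2 differed by 0.39 ± 0.12 (adjusted p = 0.0126), with WT at 9.21 to 9.71 and FXRKO at 9.76 to 9.88. That call ended with each array centred on its median (0.20, adjusted p = 0.124), with a block for the code number (0.31, adjusted p = 0.543) and without the 4 arrays whose names end in _2 (0.37, adjusted p = 0.109). Gclm (0.11 ± 0.05, adjusted p = 0.113) and Txnrd1 (0.10 ± 0.08, adjusted p = 0.334) did not pass, and both changed sign under centring.

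Counted by groups that do not overlap, 4 of the 9 genes separated FXRKO from WT under vehicle and 7 under OCA, against 15.1% and 18.4% of all genes. The 4 were Nfe2l2, Nqo1, Srxn1 and Ephx1, and they were among the 7. Within array code number 7, where 4 WT and 4 FXRKO vehicle livers can be compared, 4533 of all 18820 genes were called. The same 8 genes passed there, with Nqo1 at 1.37 (adjusted p = 0.000471), Srxn1 at 1.65 (adjusted p = 4.15e-06), Nfe2l2 at 0.70 (adjusted p = 0.0011), Osgin1 at −1.57 (adjusted p = 0.000174) and Mafg at −0.42 (adjusted p = 0.00169). Centring each array on its median moved the median change of all genes from −0.03 to −0.20 and the share of higher genes among all calls from 56.1% to 17.5% under vehicle and from 56.7% to 16.9% under OCA. Quantile normalization moved the OCA share to 46.6%. Under centring 7 of the 9 genes were called under vehicle, 5 of them higher, where 10130 of all 18820 genes were called (1776 higher).

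OCA changed none of the 9 genes at the adjusted threshold in WT liver, where 0.0691% of all genes (13) were called and 9.47% had an unadjusted p under 0.05. Of the 9 genes 3 had an unadjusted p under 0.05. Osgin1 stood at 0.61 ± 0.26 (unadjusted p = 0.0239, limma adjusted p = 0.443), from 8.89 to 10.56 under vehicle and from 10.10 to 11.41 under OCA. Nfe2l2 stood at 0.35 ± 0.12 (unadjusted p = 0.00612, limma adjusted p = 0.286) and Ephx1 at −0.15 ± 0.06 (unadjusted p = 0.0131, limma adjusted p = 0.371). The OCA and vehicle livers overlapped for all 9 genes in both genotypes (0.457% of all genes in WT and 0.654% in FXRKO did not). Without WT vehicle replicate 6 the values were 0.40 for Osgin1, 0.24 for Nfe2l2 and −0.17 for Ephx1.

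The 95% intervals for OCA in WT liver hold only for this model, which has no term for the array code number. All 6 WT OCA arrays carry 5, as do 2 WT vehicle arrays, while the other 4 carry 7. Other settings gave changes as low as −0.29 for Srxn1 and −0.13 for Txnrd1, outside the intervals given here. The intervals are therefore not limits on the OCA effect. Nqo1 stood at −0.12 ± 0.16 (95% interval −0.46 to 0.21), Srxn1 at −0.05 (−0.26 to 0.16) and Gclc at −0.06 (−0.31 to 0.18). Gclm stood at 0.08 (−0.03 to 0.19), Txnrd1 at 0.04 (−0.11 to 0.20) and Mafg at 0.16 ± 0.08 (−0.02 to 0.33).

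In FXRKO liver OCA again changed none of the 9 genes, where 0.0159% of all genes were called (3) and 5.14% had an unadjusted p under 0.05, none of the 9 among them. The changes lay between −0.06 for Ephx1 and 0.37 for Osgin1 (95% interval −0.16 to 0.89, limma adjusted p = 0.986). Osgin1 was the most variable, from 8.14 to 9.40 under OCA. The difference of the OCA effects between genotypes passed for 0 of the 9 genes and for 0 of all 18820 (limma; 6.06% of genes and 0 of the 9 at an unadjusted p under 0.05). It was −0.33 ± 0.17 for Nfe2l2 (adjusted p = 0.833), −0.21 ± 0.12 for Mafg (adjusted p = 0.841) and −0.25 ± 0.36 for Osgin1 (adjusted p = 0.95).

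Other genes of the pathway were taken from 8 lists of 47 genes, of which 42 were measured. The lists too were chosen with earlier results of these data known, so their counts are descriptions. Under vehicle 32 rose and 2 fell in FXRKO liver (34 of 42 called, against 27.5% of all genes), and under OCA 32 were higher and 2 lower (34 of 42, against 30.7%), with 32 called in the same direction in both (94.1% of either). The share of repeated calls over all genes was not counted. With a block for the code number 15 in place of 34 were called under OCA. Their median change was 0.49 under vehicle and 0.43 under OCA, against −0.03 and −0.02 over all genes.

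**Figure D3:**
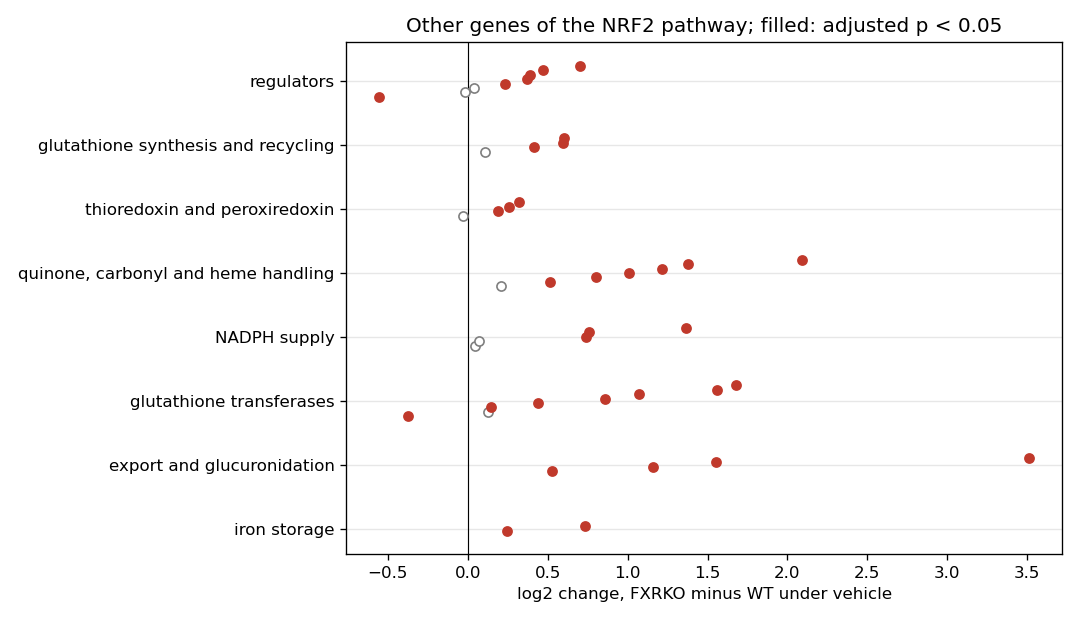
Log2 change of FXRKO minus WT under vehicle (horizontal axis) for 42 other genes of the NRF2 pathway, 1 point per gene, by list (vertical axis); filled points passed an adjusted p under 0.05. The filled points lie to the right of 0 except Bach1 (−0.56) and Gstp1 (−0.37), and Abcc4 lies farthest right at 3.51.

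Of 8 regulators 5 rose and 1 fell under vehicle. Keap1, the adaptor that marks NRF2 for degradation, stood at 0.23 ± 0.08 (adjusted p = 0.0235). Sqstm1, the autophagy receptor p62 that can sequester KEAP1, rose by 0.39 ± 0.08 (adjusted p = 0.000399), and the related factor gene Nfe2l1 by 0.47 ± 0.11 (adjusted p = 0.00137). Bach1, a repressor that competes for antioxidant response elements, fell from 7.94 ± 0.24 to 7.39 ± 0.12 (mean ± SD, n = 6), a change of −0.56 ± 0.10 (adjusted p = 0.000138). The other small MAF genes, picked after their values were seen, went the opposite way from Mafg under vehicle, with Maff at 0.70 ± 0.23 (adjusted p = 0.0241) and Mafk at 0.37 ± 0.11 (adjusted p = 0.0128). Under OCA Mafk stood at 0.59 (adjusted p = 0.000135), while Maff stood at 0.10 ± 0.23 and did not pass (adjusted p = 0.807).

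Most genes of glutathione, thioredoxin and iron handling rose. Of 4 measured genes of glutathione synthesis and recycling 3 rose, the reductase gene Gsr by 0.60 ± 0.06 (adjusted p = 3.2e-08), the synthetase gene Gss by 0.41 ± 0.07 (adjusted p = 0.000109) and the cystine carrier gene Slc7a11 by 0.60 ± 0.16 (adjusted p = 0.00592), the latter at a low signal of 3.11 ± 0.16 in WT. Of 4 thioredoxin and peroxiredoxin genes 3 rose, Prdx1 by 0.26 ± 0.05 (adjusted p = 0.000184), Prdx2 by 0.32 ± 0.08 (adjusted p = 0.00223) and the thioredoxin gene Txn1. The fourth, the catalase gene Cat, stood at −0.03 ± 0.04. Both genes of iron storage rose, the ferritin light chain gene Ftl1 by 0.73 ± 0.08 (adjusted p = 3.69e-08) and the heavy chain gene Fth1 by 0.24 ± 0.05 (adjusted p = 0.000235).

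Of 7 genes of quinone, carbonyl and heme handling 6 rose. The aldo-keto reductase gene Akr1b8 went from 5.34 ± 0.06 to 6.72 ± 0.22 (1.38 ± 0.11, adjusted p = 4.83e-10) and the aldehyde oxidase gene Aox1 from 9.08 ± 0.20 to 10.09 ± 0.06 (1.01 ± 0.09, adjusted p = 1.06e-09). Hmox1, heme oxygenase, which NRF2 and BACH1 both control and which macrophages also express, went from 8.04 ± 0.69 to 9.25 ± 0.21 (1.22 ± 0.24, adjusted p = 0.000355) with overlapping groups. Of 5 NADPH-supplying genes 3 rose, among them the pentose phosphate enzymes Pgd, from 8.15 ± 0.06 to 9.52 ± 0.11 (1.36 ± 0.08, adjusted p = 9.17e-13), and Tkt (0.76 ± 0.09, adjusted p = 2.73e-07).

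Conjugation and export genes held the largest single change of the 42. Abcc4, which encodes the basolateral exporter MRP4 that also carries bile acids, ranged from 4.94 (median 5.11) to 5.71 in WT and from 8.52 (median 8.69) to 8.91 in FXRKO vehicle liver, 11.4-fold higher (3.51 ± 0.13, adjusted p = 1.27e-16). Ugdh, which makes UDP-glucuronic acid, rose 2.94-fold (1.55 ± 0.08, adjusted p = 7.6e-14), and all 4 measured genes of that list rose. Of 8 glutathione transferase genes 6 rose, Gstm2 by 1.56 ± 0.08 (adjusted p = 8.75e-14) and Gstm3 by 1.68 ± 0.11 (adjusted p = 1.73e-11) among them, while Gstp1 fell by 0.37 ± 0.07 (adjusted p = 9.6e-05). Members of the Gstm family are close copies and may share signal between probe sets.

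Marker lists of other receptors and cell types were also compared between the genotypes. Under vehicle 27.5% of all genes were called (15.4% higher, 12.1% lower). On lists this short, the counts under vehicle for lymphocytes, sinusoidal endothelium and hepatocytes were near that share. The summed ranges of the cholangiocyte, lymphocyte and endothelial lists overlapped between the genotypes. Under OCA, where 30.7% of all genes were called (13.3% lower), 5 of 6 hepatocyte markers were called lower, with a median change of −0.145. All 6 hepatocyte changes were negative in both comparisons. Of 5 cholangiocyte markers 0 were called under OCA. The part of any list in these results was not tested. Of 5 genes listed as CAR targets all 5 rose in FXRKO liver under vehicle, Cyp2b10 by 4.13 ± 0.39 (adjusted p = 6.94e-09). The summed signal of the list ran from 12.19 to 12.26 in WT and from 13.76 to 13.83 in FXRKO on the log2 scale. Cyp2b9 (7.40) and Cyp2b13 (7.25) rose most of the 5 and weigh on that sum. Whether CAR drove the rise of any of the 5 was not tested. Of 4 measured targets of the dioxin receptor AhR, which also controls Nqo1, 1 rose and 1 fell. Cyp1a2, the only 1 of the 4 at a high signal, went from 12.32 to 12.23 and was not called (limma, adjusted p = 0.259), nor was it under OCA (adjusted p = 0.55). Cyp1b1, picked after its value was seen, rose from 3.49 to 4.37 (0.87 ± 0.12, adjusted p = 2.95e-06) and was higher by 1.14 under OCA (adjusted p = 4.16e-08). Ahrr, likewise picked, fell by 0.21 ± 0.08 (adjusted p = 0.0473) from a low signal of 3.55, and under OCA it stood at −0.08 and was not called (adjusted p = 0.479). Cyp1a1 stood at 0.00 ± 0.16 (adjusted p = 0.995) at a low signal of 3.38 in both genotypes, and at 0.30 under OCA (adjusted p = 0.169). Under vehicle, all 6 genes listed as infiltrating macrophage markers rose (Gpnmb, Trem2, Cd68, Lyz2, Ccr2 and Itgax). Their summed signals were 9.05 to 9.75 in WT and 10.52 to 10.82 in FXRKO. Cd68 and Lyz2 had the highest FXRKO means of the 6 (9.08 and 9.57) and weigh most on that sum. Whether cells had infiltrated was not tested. Of 9 Kupffer cell markers 6 rose (11.09 to 12.06 and 12.14 to 12.31). Of 6 stellate cell markers 4 rose (9.74 to 10.06 and 10.34 to 10.65). Of 5 cholangiocyte markers 2 rose (7.13 to 7.64 and 7.32 to 7.68). Of 5 lymphocyte markers 1 rose, the general leukocyte gene Ptprc (0.70 ± 0.16), and the sums were 7.27 to 7.82 and 7.57 to 7.87. The other 4, genes of T and B cells, stood lower, from −0.38 (Cd3g) to −0.12 (Cd79b), and were not called. Of 6 sinusoidal endothelial markers 2 fell (11.27 to 11.59 and 10.96 to 11.42), and of 6 hepatocyte markers 2 fell (15.52 to 15.62 and 15.32 to 15.40).

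Among mice of the same group the 9 genes varied together only in part. Over the 23 arrays without WT vehicle replicate 6, deviations from the group mean gave 36 gene pairs with a median Pearson r of 0.13 and a range of −0.39 to 0.60, with 2 pairs over 0.5 and 9 below 0. The highest were Txnrd1 with Osgin1 (0.60) and Gclc with Gclm (0.59), the subunits of the same enzyme. With WT vehicle replicate 6 included, Txnrd1 with Osgin1 stood at −0.07, so that value rested on leaving the array out, whereas Gclc with Gclm stood at 0.67. Nqo1 and Srxn1, which had the largest rises, stood at 0.44, and Nfe2l2 with Nqo1 at 0.25. Over all 24 arrays the median was 0.16 and the range −0.49 (Nfe2l2 with Txnrd1) to 0.67, with 4 pairs over 0.5 and 10 below 0. These values are descriptions, since all arrays were scaled together and members were compared on the same arrays.

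**Figure D4:**
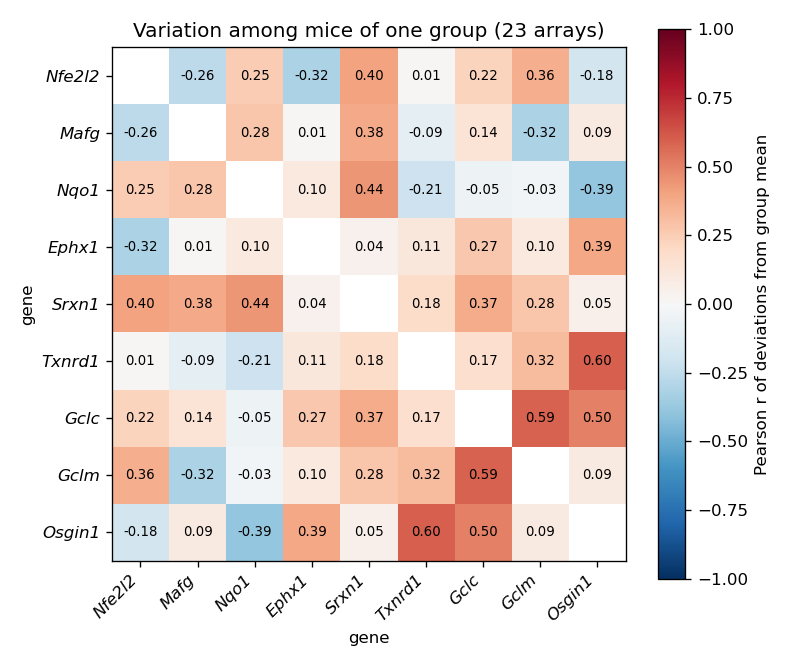
Pearson r of deviations from the group mean for each pair of the 9 genes (both axes) over 23 livers; blue is negative and red positive. Values run from −0.39 (Nqo1 with Osgin1) to 0.60 (Txnrd1 with Osgin1), and with WT vehicle replicate 6 included the latter pair is at −0.07.

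The genes most like a member in the same measure were searched among 9401 genes above the median level. The highest of so many values over 23 arrays can be high by chance, which was not tested. Those closest to Nqo1 were Cabcoco1 (r = 0.82), Aplp2 (0.80) and Zfand1 (0.78). Those closest to Nfe2l2 were the clock-linked repressor gene Bhlhe40 (0.82), the cytochrome gene Cyp2b9 (0.81) and the integrin gene Itga8 (0.80). The WT arrays weigh most in the Nfe2l2 values. Over all 6 mice per group its SD was 0.36 (vehicle) and 0.21 (OCA) in WT, against 0.11 and 0.05 in FXRKO liver. The SD of Cyp2b9 was 0.78 and 1.20 against 0.08 and 0.14, with WT means of only 4.48 and 4.54. With all 24 arrays the r values for Nfe2l2 were 0.56, 0.70 and 0.45, so they depended on leaving out WT vehicle replicate 6, whereas those of Nqo1 were 0.82, 0.78 and 0.78.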

How the data were processed

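The deposited values were log2 expression values of 24 whole-transcript arrays, which the authors obtained by RMA per the submitters' processing notes. Neither the software version nor the base of the logarithm is stated; values from 0.87 to 13.6 were read as log2. Of 35556 probe sets 21218 carried 1 gene symbol, 1881 several, and the probe table lacked 12457. Symbols were updated through a RefSeq gene table (GRCm38.p6) for 21185, and the highest-mean probe set per symbol left 18820 genes. No detection calls were used.

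All 24 arrays entered 1 limma fit with a mean per group (limma 3.58.1, R 4.3.3), moderated by eBayes, with Benjamini-Hochberg adjustment over all genes and a call at 0.05; the fit was tested on simulated data. Python 3.11.15 with matplotlib 3.10.9 made the plots. The members and lists were chosen with earlier results of these data known. All members were named. Of the other pathway genes, Keap1, Hmox1 and Slc7a11 were named always, and in each list up to 2 each way with the smallest p under vehicle. Maff, Mafk, Txn1, Cat, Cyp1b1, Cyp1a2, Ahrr, Cyp2b9, Cyp2b13, Ptprc, Cd3g, Cd79b, the infiltrating macrophage genes and the genes of the closing section fall outside this rule. Motif windows were read from the RefSeq promoter table. Alternatives were other scalings, filters, variance models, probe set rules and sample sets, blocks by array code or replicate number, and leaving out each array. The number of arrays limits the precision.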

Additional observations from a re-analysis of the deposited data

Results flagged for a closer look

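Of 36 sets of 6 livers (9 genes in 4 groups) 3 held a mouse far from the other 5 by Dixon's test, which by chance marks about 1 set in 20. Ephx1 was 11.03 in WT OCA replicate 1, against 11.26 to 11.39 in the others. Osgin1 was 8.14 in FXRKO OCA replicate 5, against 8.99 to 9.40. Mafg was 6.77 in WT vehicle replicate 6, the array that stands apart over many genes, against 7.11 to 7.31.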

How the results depend on the processing

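With 1 array left out in turn the count of the 9 genes called for FXRKO against WT was 8 to 9 under vehicle and 7 in every fit under OCA, and it was 7 to 8 and 6 to 7 under the other settings. The other pathway genes called under OCA numbered 15 in place of 34 with a block for the code number, a fit that links WT and FXRKO OCA arrays only through vehicle arrays and called 2334 genes in place of 5780; centring called 10130 in place of 5174 under vehicle and 11099 under OCA. With that block 667 genes in place of 13 were called for OCA in WT liver, none of the 9 among them, and no OCA setting called any. Signs changed only for changes that were not called. Centring gave Txnrd1 −0.049 under vehicle and −0.089 under OCA and Gclm −0.078 under OCA. The number block gave, for OCA in WT liver, Nqo1 0.075 and Txnrd1 −0.131, as did number 5 alone; in FXRKO liver Srxn1 −0.011 and Gclm 0.005, as did number 9 alone; and for the difference of OCA effects Nqo1 −0.026 and Txnrd1 0.152. Quantile normalization gave Nqo1 −0.001 for OCA in FXRKO liver. With single arrays left out the OCA changes ran from −0.009 to 0.054 (Nfe2l2), −0.060 to 0.116 (Nqo1) and −0.019 to 0.006 (Gclm) in FXRKO liver, from −0.135 to 0.068 (Gclc) and −0.006 to 0.116 (Txnrd1) in WT liver, and from −0.091 to 0.031 for the difference in Txnrd1. The causes were not tested.

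Same-numbered mice of different groups did not deviate together (correlations −0.08 to 0.17, 2 of 36 pairs over 0.1; 2 of 24 arrays lay closest to an array of their own number). The replicate number as a block gave 8 and 7 of the 9 genes and 34 and 33 other pathway genes for FXRKO against WT, and 0 for OCA, and changed no call among the 9. For FXRKO against WT that block called 5060 genes under vehicle and 5707 under OCA.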

Other observations

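Among the other pathway genes OCA in WT liver gave 0 calls of 42 (limma, lowest adjusted p = 0.257). Of the 42, 4 had an unadjusted p under 0.05, a share near the 9.47% of all genes, so these 4 do not set the list apart. All 4, picked after their values were seen, stood on the higher side: the glutathione transferase gene Gsta4 at 0.27 ± 0.09, the carbonyl reductase genes Cbr1 at 0.27 ± 0.09 and Cbr3 at 0.39 ± 0.18, and Maff at 0.61 ± 0.23. In FXRKO liver the same genes stood at 0.01, 0.09, −0.20 and 0.00, and the difference of OCA effects between genotypes was called for 0 of the 42. Cbr3 was among the strongest of the pathway genes in FXRKO against WT liver under vehicle, going from 3.41 to 5.49 (2.09 ± 0.18, adjusted p = 1.51e-09). G6pd2, a close autosomal copy of the unmeasured G6pdx, was picked after its value was seen and stood 0.30 ± 0.11 higher in FXRKO under vehicle (adjusted p = 0.0373) at a low signal of 4.32 in WT, and signal from its X-linked relative cannot be told apart.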
